A study of Rattus norvegicus with 12 samples.

Results

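Immediate early response genes are transcribed within minutes of a stimulus, without new protein synthesis, and 10 of them were followed here in the renal cortex of lean and obese rats: Fos, Fosb, Jun, Junb, Egr1, Atf3, Ier2, Dusp1, Nr4a1 and Zfp36. They were chosen by name, and all 10 are among the 13151 genes with a deposited value. RNA sequencing was performed on 12 male rats aged 32 weeks. The Zucker lean (ZL) group of 4 rats was the control, and the Zucker fatty (ZF) group of 4 rats was the untreated obesity model. The ZF-SGLT2i group of 4 rats was Zucker fatty rats given canagliflozin, an inhibitor of the sodium-glucose cotransporter 2 of the proximal tubule, at 10 mg/kg/day in food. Treatment began at 24 weeks of age and lasted 8 weeks, with food per body weight matched to untreated ZF rats. ZF rats carry a leptin receptor defect in every cell, whereas the series text calls them leptin-deficient. Rats were anesthetized with isoflurane and perfused with cold saline before the kidneys were taken, and the time of day at which this was done is not given in the sources used here. By the paper's methods, the lean rats and the ZF rats followed beside them had open kidney biopsies at earlier ages. Treated rats came from a separately bought set of ZF rats, randomly divided into untreated, treated and calorie-restricted groups. The paper calls the sequenced untreated rats both ZF and nontreated ZF, so which set they came from is not certain. The part of this history in the results was not tested. Replicates were single rats, numbered 1 to 4 in ZL, 2 to 5 in ZF, and 2, 3, 4 and 6 in ZF-SGLT2i.

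Growth factors, stretch, ischemia and other stress activate MAP kinases and calcium or cAMP signals, which phosphorylate factors that are already bound at the promoters of these genes. Serum response factor with its ETS partners (Elk1, Elk3 and Elk4) binds the CArG box, and CREB binds the cAMP response element. The products fall into 3 kinds. Fos, Fosb, Jun, Junb and Atf3 encode basic leucine zipper proteins that pair into AP-1 and related dimers. Egr1 encodes a zinc finger factor, Nr4a1 an orphan nuclear receptor, and Ier2 a nuclear protein. Dusp1 and Zfp36 act as brakes, Dusp1 as a phosphatase of MAP kinases in the nucleus and Zfp36 as a protein that binds AU-rich elements and speeds the decay of cytokine and early gene transcripts. In the kidney these genes are known as early markers of tubular injury and of mitogen action.

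Promoter sequences of 7 of the 10 genes were matched by symbol in a RefSeq table of the GRCr8 build, which gives 250 bases before and 50 after the start of each gene. Fos, Jun and Atf3 had no entry. The following 4 hold the elements named above, so that a reader can see where they lie ahead of the start. They run 5′ to 3′ on the strand of the gene and end on the base before the start. Capitals mark the letters TGACG, or CGTCA on the other strand, which are the core of the cAMP response element, and the CArG box in Zfp36.
Ier2, chr19:40399123-40399372, plus strand: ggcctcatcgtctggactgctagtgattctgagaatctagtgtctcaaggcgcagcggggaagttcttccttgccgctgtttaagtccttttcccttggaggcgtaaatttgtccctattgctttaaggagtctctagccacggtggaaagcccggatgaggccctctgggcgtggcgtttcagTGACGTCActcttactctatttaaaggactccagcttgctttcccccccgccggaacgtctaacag
Dusp1, chr10:17184603-17184852, plus strand: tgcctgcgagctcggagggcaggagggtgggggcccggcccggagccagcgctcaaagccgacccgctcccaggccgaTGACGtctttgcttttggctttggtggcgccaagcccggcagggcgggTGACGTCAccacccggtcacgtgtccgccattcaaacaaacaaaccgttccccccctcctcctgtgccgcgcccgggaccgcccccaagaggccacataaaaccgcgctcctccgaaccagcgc
Nr4a1, chr7:134259888-134260137, plus strand: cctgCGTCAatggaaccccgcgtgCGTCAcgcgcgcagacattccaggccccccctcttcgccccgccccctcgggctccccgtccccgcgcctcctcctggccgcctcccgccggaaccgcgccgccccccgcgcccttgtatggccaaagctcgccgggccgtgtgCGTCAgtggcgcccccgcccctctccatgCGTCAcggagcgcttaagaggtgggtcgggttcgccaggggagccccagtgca
Zfp36, chr1:92799109-92799358, minus strand: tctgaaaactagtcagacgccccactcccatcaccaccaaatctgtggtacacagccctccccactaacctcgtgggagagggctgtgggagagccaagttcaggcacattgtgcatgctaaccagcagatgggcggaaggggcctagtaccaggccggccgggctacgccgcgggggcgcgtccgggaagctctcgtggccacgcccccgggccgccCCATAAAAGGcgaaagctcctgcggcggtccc

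Both strands were searched over the full window for each motif. The full cAMP response element TGACGTCA was found in Ier2, from -66 to -59 relative to the start, and in Dusp1, from -124 to -117, whereas 1.83% of 33469 promoters held it. Its core TGACG, which lies within the full element, was found in Junb, Egr1, Ier2, Dusp1 and Nr4a1, against 21.2% of all promoters. Nr4a1 held the core at 4 places. The CArG box was found at 2 places in Egr1 and from -32 to -23 in Zfp36, against 1.64% of all promoters. The letters GCGNGGGCG, a site for EGR proteins, were present in Nr4a1 and Zfp36 and in 4.98% of all promoters, and GGGCGG, an SP1 box, in Dusp1, Nr4a1 and Zfp36 and in 33.1%. The TATAAA box was present in Fosb and Junb and in 14.2%. The AP-1 letters TGACTCA were in none of the 7 windows and in 4.63% of all.

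All 10 genes had reads in every rat, and for 8 of them the group means were ordered ZL, ZF, ZF-SGLT2i from low to high, with Jun and Atf3 as the exceptions. Values are CPM, the reads of a gene relative to all reads on genes of its library, scaled by the authors, and are not divided by gene length. Reads on genes numbered 8824980 to 12210257 per rat. Fold changes are given as log2 differences of log2(value + 1) ± standard error from limma, which understates the change of genes near 1 CPM, and the threshold for a call was an adjusted p of 0.05 over 11633 tested genes. Against ZL, 3 of the 10 were called in ZF and 6 in ZF-SGLT2i, all of them higher. When a rat was left out, the count ran from 1 to 5 in ZF and from 5 to 7 in ZF-SGLT2i. Against ZF, 1 of the 10 was called in ZF-SGLT2i, and it was also higher. The shares of all tested genes that were called in the same order were 18.8%, 27.4% and 3.15%, and those called higher were 8.19%, 12.4% and 1.39%. The comparisons share rats, so they are not independent of each other.

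**Figure D1:**
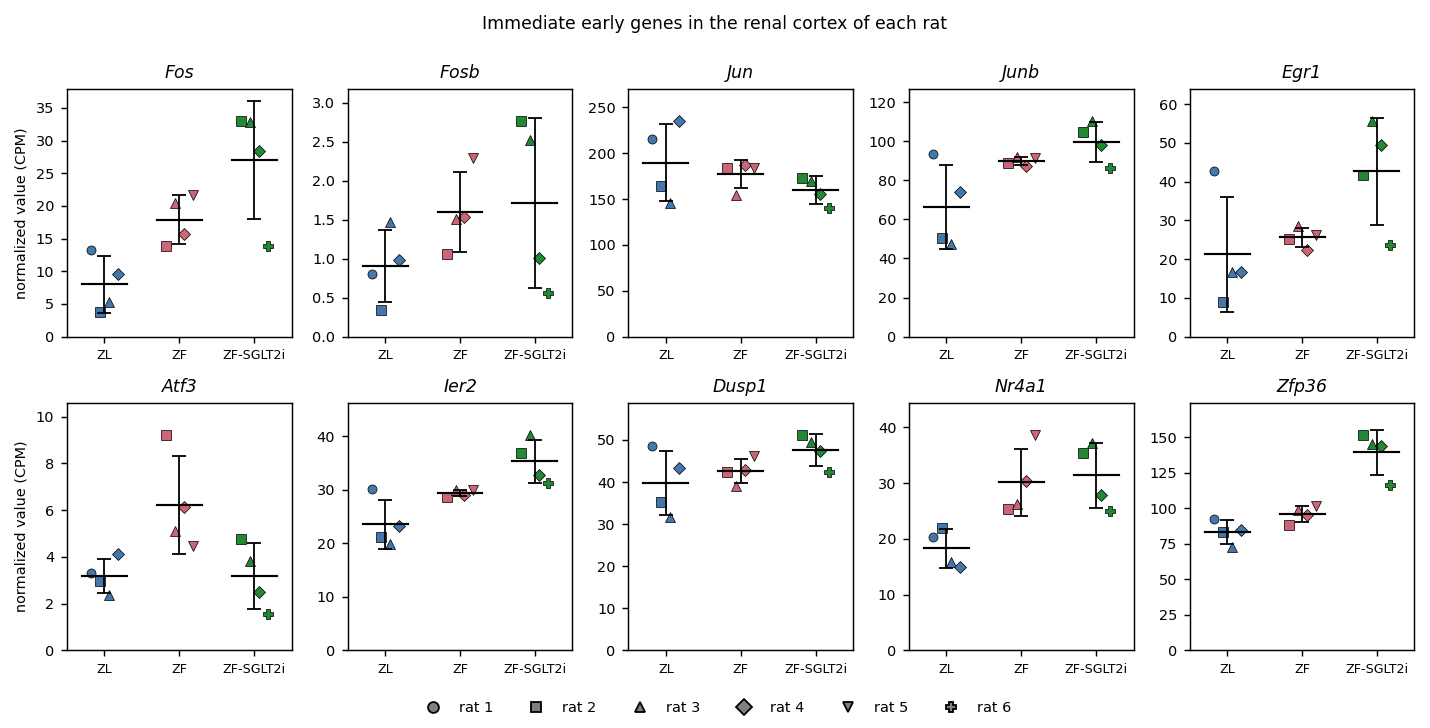
Normalized value in CPM (linear axis from 0) of each immediate early gene in each rat, with the horizontal line at the group mean, error bars of 1 SD (n = 4 rats) and a symbol for each rat number. Zfp36 is higher in all 4 ZF-SGLT2i rats than in every other rat, and ZF-SGLT2i rat 6 is the lowest of its group in all 10 panels.

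Single rats stood apart from their groups. ZL rat 1 was above its group mean for 9 of the 10 genes and the highest of its group for 6, whereas ZL rat 3 was the lowest for 6. ZF-SGLT2i rat 6 was the lowest of its group for all 10, and rats 2 and 3 of that group were above the mean for all 10. ZF rat 5 was the highest of its group for 6 and above its mean for 9. Without ZL rat 1 and ZF-SGLT2i rat 6, a choice made after seeing the values, 6 genes were called in ZF against ZL, 2 in ZF-SGLT2i against ZF and 7 in ZF-SGLT2i against ZL, while the number of all genes called dropped from 2185 to 1313, from 366 to 131 and from 3184 to 1560. The calls gained were Junb, Egr1, Ier2 and Zfp36 in the first comparison, where Atf3 was lost, Egr1 in the second (0.90, adjusted p = 0.0439) and Dusp1 in the third. Both rats were picked on the values of these same genes. Leaving out a high lean rat and a low treated rat raises most of these differences by construction. The gained calls follow from that choice and add no support for a difference.

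Reads on the ribosomal RNA genes Rn28s and Rn45s, which depletion should remove, differed between libraries. Their share had a range of 7.25% to 12.0% over the ZL rats, 8.82% to 12.0% over the ZF rats and 11.5% to 15.2% over the ZF-SGLT2i rats. Rat 6, at 15.2%, had the highest share of all and the lowest immediate early levels of its group. ZL rat 3, at 7.25%, had the lowest share and was also low in these genes. The part of this share in the results was not tested.

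Of the 10 genes, Fos, the AP-1 partner that cannot pair with itself, had the largest differences from ZL. Its level was 13.3, 3.73, 5.33 and 9.65 CPM in ZL rats 1 to 4, 13.8, 20.4, 15.6 and 21.6 CPM in ZF rats 2 to 5, and 32.9, 32.8, 28.5 and 13.9 CPM in ZF-SGLT2i rats 2, 3, 4 and 6. Every obese rat was above every lean rat, while ZF-SGLT2i rat 6 lay at the level of the lowest ZF rat. Fos rose in ZF (log2 fold change 1.18 ± 0.32, adjusted p = 0.0229) and in ZF-SGLT2i (1.70 ± 0.32, adjusted p = 0.00199) against ZL. The step from ZF to ZF-SGLT2i was 0.52 ± 0.32 (adjusted p = 0.444). The call in ZF against ZL was lost without ZL rat 2 (adjusted p = 0.0514), ZL rat 3 (0.0606), ZF rat 3 (0.0649) or ZF rat 5 (0.0596).

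Fosb, a close relative of Fos, was near the floor of detection, with 4 to 29 reads per rat. Its values ranged from 0.347 to 1.47 CPM in ZL, from 1.05 to 2.30 CPM in ZF, and from 0.557 to 2.76 CPM in ZF-SGLT2i. The groups overlapped, and none of the 3 differences was called. The log2 fold changes were 0.46 ± 0.28 for ZF against ZL (adjusted p = 0.273) and 0.45 ± 0.28 for ZF-SGLT2i against ZL (adjusted p = 0.256), and -0.01 ± 0.28 for ZF-SGLT2i against ZF (adjusted p = 0.986).

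Junb, a Jun protein that can oppose Jun, was 93.4, 50.5, 47.5 and 74.2 CPM in the ZL rats, 89.0, 92.0, 87.4 and 91.4 CPM in the ZF rats, and 105, 110, 97.9 and 86.5 CPM in the ZF-SGLT2i rats. The ZF rats lay close together, and ZL rat 1 lay above all of them. Junb rose in ZF-SGLT2i against ZL (0.63 ± 0.16, adjusted p = 0.0124). In ZF against ZL the difference was 0.49 ± 0.16 with an adjusted p of 0.0546. It passed the threshold without ZL rat 1 (adjusted p = 0.00793) or ZL rat 4 (adjusted p = 0.0455), and with all 12 rats under quantile normalization (adjusted p = 0.0352) and DESeq2 (adjusted p = 0.0499). It also passed with the rat number as a block (adjusted p = 0.0361), a fit that gives ZL rat 1 no weight either. In ZF-SGLT2i against ZF it was 0.14 ± 0.16 (adjusted p = 0.711).

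Jun itself, the main partner of Fos, did not follow this order. Jun was 215, 164, 145 and 235 CPM in ZL, 184, 155, 187 and 184 CPM in ZF, and 173, 170, 156 and 140 CPM in ZF-SGLT2i. The group means ran the other way, and the groups overlapped throughout. The log2 fold changes were -0.07 ± 0.13 in ZF against ZL (adjusted p = 0.739), -0.15 ± 0.13 in ZF-SGLT2i against ZF (adjusted p = 0.600) and -0.23 ± 0.13 in ZF-SGLT2i against ZL (adjusted p = 0.217). The last one passed the threshold without ZL rat 3 (-0.34, adjusted p = 0.0458), and the first changed sign without ZL rat 4 (0.037).

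Atf3, a stress-induced member of the ATF family, was the only one of the 10 genes with its highest mean in untreated ZF. Atf3 was 3.32, 2.95, 2.38 and 4.11 CPM in ZL, 9.20, 5.11, 6.15 and 4.48 CPM in ZF, and 4.76, 3.84, 2.52 and 1.56 CPM in ZF-SGLT2i. All ZF rats were above all ZL rats, and only ZF-SGLT2i rat 2 reached the range of ZF. Atf3 rose in ZF against ZL (0.76 ± 0.25, adjusted p = 0.0452). In ZF-SGLT2i against ZF the difference was -0.82 ± 0.25 (adjusted p = 0.0944), and DESeq2 on the recovered reads put this difference at an adjusted p of 0.0417. With 14 to 96 reads per rat, the call in ZF against ZL was lost in 8 of the 12 fits that left out a rat. Those rats were ZL 1 (adjusted p = 0.0835), ZL 2 (0.0786), ZL 3 (0.111), ZF 2 (0.137), ZF 3 (0.0672), ZF 4 (0.0708), ZF-SGLT2i 3 (0.0542) and ZF-SGLT2i 4 (0.0551). It was also lost with a pseudocount of 0.1 (adjusted p = 0.0553), with quantile normalization (0.0599), with the rat number as a block (0.0556) and without the 2 rats that stood apart (0.0547).

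Among the other nuclear factors, Nr4a1 rose in both obese groups, and Ier2 in the treated group, against ZL. Nr4a1 was 20.4, 22.0, 15.8 and 15.0 CPM in ZL, 25.4, 26.2, 30.3 and 38.6 CPM in ZF, and 35.4, 37.3, 27.8 and 25.1 CPM in ZF-SGLT2i. All obese rats were above all lean rats, and the ZF and ZF-SGLT2i rats were mixed. It rose in ZF (0.69 ± 0.16, adjusted p = 0.0104) and in ZF-SGLT2i (0.75 ± 0.16, adjusted p = 0.00415) against ZL, and between the obese groups it differed by 0.06 ± 0.16 (adjusted p = 0.894). The call in ZF was lost with the rat number as a block (adjusted p = 0.0508).

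Ier2 was 30.1, 21.2, 19.8 and 23.1 CPM in ZL, 28.7, 29.9, 29.1 and 30.0 CPM in ZF, and 36.9, 40.2, 32.8 and 31.3 CPM in ZF-SGLT2i. The ZF-SGLT2i rats were above every rat of both other groups, and ZL rat 1 was level with ZF. Ier2 rose in ZF-SGLT2i against ZL (0.57 ± 0.11, adjusted p = 0.00235). Against ZF the difference was 0.25 ± 0.11, with an adjusted p of 0.267 and an exact permutation p of 0.0286, the smallest that 4 rats against 4 allow. In ZF against ZL it was 0.32 ± 0.11 (adjusted p = 0.0600). It passed the threshold without ZL rat 1 (adjusted p = 0.00986) and with all 12 rats under quantile normalization (0.0489). It also passed with the rat number as a block (0.0402), a fit that gives ZL rat 1 no weight either.

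Egr1 had the largest standard error of the 10 genes. It was 42.8, 8.84, 16.8 and 16.7 CPM in ZL, 25.2, 28.6, 22.4 and 26.1 CPM in ZF, and 41.7, 55.5, 49.5 and 23.6 CPM in ZF-SGLT2i. ZL rat 1 lay within the range of ZF-SGLT2i, and ZF-SGLT2i rat 6 within that of ZF. The rise in ZF-SGLT2i against ZL was 1.12 ± 0.35 (adjusted p = 0.0298), and edgeR and DESeq2 on the recovered reads gave adjusted p of 0.0543 and 0.0701. The call was also lost without ZL rat 2 (adjusted p = 0.0745), ZL rat 3 (0.0595), ZL rat 4 (0.0578), ZF-SGLT2i rat 2 (0.0599), ZF-SGLT2i rat 3 (0.0901) or ZF-SGLT2i rat 4 (0.0716), in the fit of the 2 groups alone (0.0584) and with array weights (0.0692). In ZF against ZL the difference was 0.46 ± 0.35 (adjusted p = 0.387), and without ZL rat 1 it was 0.86 (adjusted p = 0.0491). With the rat number as a block it was 0.85 (adjusted p = 0.0262). In ZF-SGLT2i against ZF it was 0.65 ± 0.35 (adjusted p = 0.372), and it passed the threshold with that block (adjusted p = 0.0373). Both block differences rest on rats 2, 3 and 4 of each group.

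Zfp36, the brake on AU-rich transcripts, was the single gene of the 10 called between the obese groups. Zfp36 was 92.4, 83.4, 72.5 and 84.9 CPM in ZL, 88.4, 99.1, 95.2 and 102 CPM in ZF, and 151, 145, 144 and 116 CPM in ZF-SGLT2i. All treated rats were above all others, and the lowest treated rat was again rat 6. Zfp36 rose by 0.53 ± 0.09 in ZF-SGLT2i against ZF (adjusted p = 0.00605) and by 0.73 ± 0.09 against ZL (adjusted p = 0.000100). In ZF against ZL it was 0.21 ± 0.09 (adjusted p = 0.121). Both calls held in all 23 alternative fits.

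The other brake, Dusp1, was not called. Dusp1 was 48.5, 35.3, 31.8 and 43.3 CPM in ZL, 42.5, 39.1, 42.9 and 46.1 CPM in ZF, and 51.1, 49.6, 47.4 and 42.5 CPM in ZF-SGLT2i. The groups overlapped, with ZL rats 1 and 4 at the level of the obese rats. The differences were 0.12 ± 0.11 in ZF against ZL (adjusted p = 0.511) and 0.16 ± 0.11 in ZF-SGLT2i against ZF (adjusted p = 0.521). The widest difference, ZF-SGLT2i against ZL, was 0.27 ± 0.11 (adjusted p = 0.0862), and without ZL rat 1 it was 0.37 (adjusted p = 0.0227). That difference also passed the threshold with the rat number as a block, a fit that gives ZL rat 1 no weight either.

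**Figure D2:**
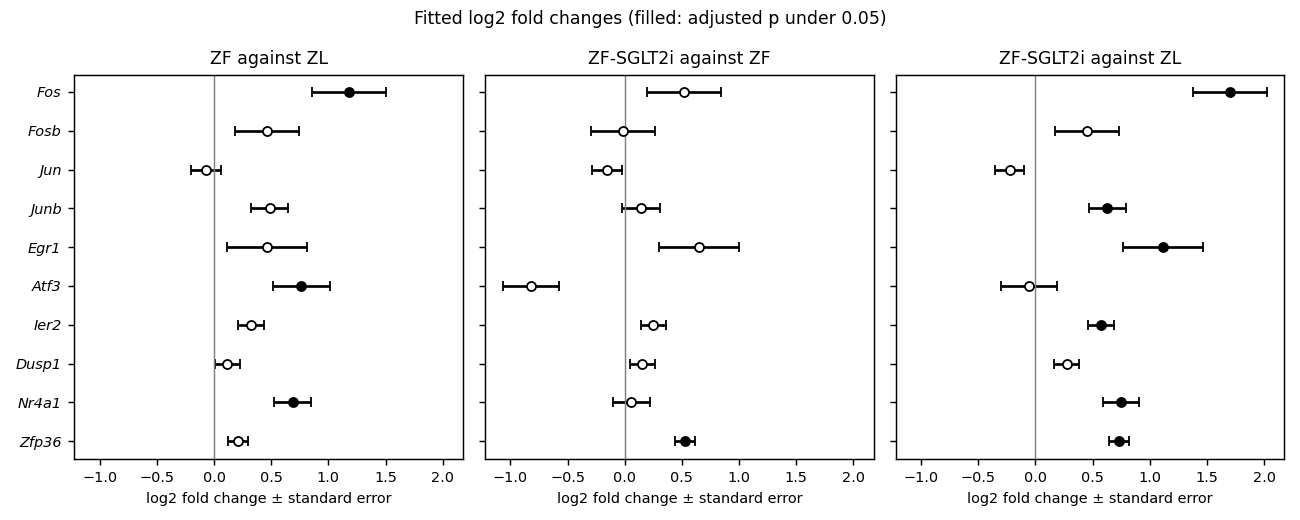
Fitted log2 fold change (x axis) of each immediate early gene in the 3 comparisons, with error bars of 1 standard error, filled where the adjusted p was under 0.05. Filled points are Fos, Atf3 and Nr4a1 in ZF against ZL, Zfp36 alone in ZF-SGLT2i against ZF, and Fos, Junb, Egr1, Ier2, Nr4a1 and Zfp36 in ZF-SGLT2i against ZL.

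Over the 10 genes, the median log2 fold change was 0.46 in ZF against ZL, 0.15 in ZF-SGLT2i against ZF and 0.60 in ZF-SGLT2i against ZL, and the medians over all tested genes were -0.0077, 0.0064 and -7.0e-05. Of the 10, 9, 7 and 8 had a fitted difference above 0 in these comparisons, and Fosb, whose mean CPM was higher in ZF-SGLT2i than in ZF (1.71 and 1.60), had a fitted difference below 0 on the log scale. The groups did not overlap for 3, 2 and 4 genes, in comparisons where 19.0%, 11.2% and 28.0% of all tested genes did not overlap. Since the tissue was whole renal cortex, more cells with these transcripts and more transcript per cell cannot be told apart.

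The 10 genes also varied together among rats of the same group. After each group mean was subtracted, the median Pearson correlation over the 45 pairs was 0.59, from 0.15 to 0.92, over 12 rats, and the median over all pairs of tested genes was -0.0014. The highest median correlation with the other 9 genes was 0.81 for Fos, followed by 0.80 for Junb, 0.76 for Dusp1 and 0.74 for Ier2, and the lowest were 0.31 for Nr4a1 and 0.37 for Fosb. Jun, whose group means ran the other way, still had a median of 0.63 within groups. These values are descriptions, since the points share libraries and their depth.

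**Figure D3:**
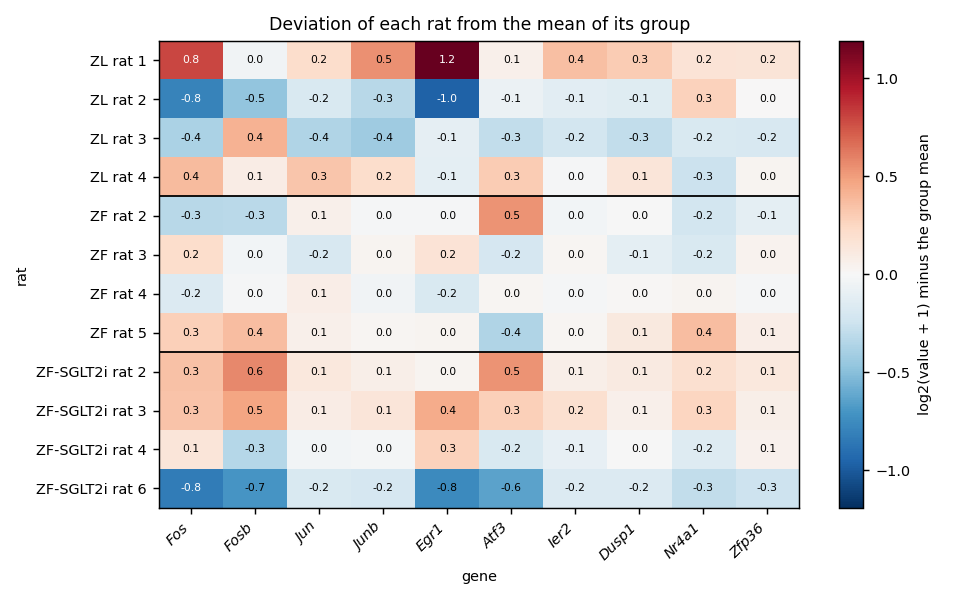
Deviation of log2(value + 1) from the group mean (color and printed number, log2 units) for each immediate early gene (columns) in each rat (rows), with lines between the groups. The row of ZF-SGLT2i rat 6 is below 0 for all 10 genes, and ZL rat 1 is above 0 for 9.

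Genes outside the 10 with the closest course within groups were Il1rn (r = 0.91), the interleukin 1 receptor antagonist, and Mars (0.89), a tRNA synthetase. Next were Ist1 (0.89), Thop1 (0.88), Arhgef6 (0.88), Twf2 (0.87), Slco2a1 (0.87), Nova1 (0.87), Ss18l1 (0.86) and Fbxo2 (0.86), each against the mean of the z-scores of the 10 genes over 12 rats. None of them is on a list used here, and Il1rn was low, with group means of 0.568, 1.21 and 0.623 CPM. The nearest genes of the wider early response were Cited2 (0.82), in place 15 of 11623, and Cyr61 (0.79), in place 30.

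To place the 10 genes in their pathway, 125 further genes were listed by role. Of these, 112 were in the table and 105 were tested. In ZF against ZL, 22 were called higher and 6 lower, together 26.7% of those tested against 18.8% of all genes. In ZF-SGLT2i against ZL, 27 were called higher and 13 lower, 38.1% against 27.4%. Between the obese groups, 1 was called higher and 2 lower, 2.86% against 3.15%. The calls that held in every alternative fit numbered 12 of 28, 17 of 40 and 0 of 3 in the same order, and those that held in every fit without a rat 16, 26 and 1. Those lost in 10 or more alternatives, beside the ones noted with their gene, were Asns, Dusp14, Egr2, Errfi1, Mapk14, Spred1 and Spry2 in ZF against ZL and Rps6ka1 in ZF-SGLT2i against ZL. Those lost in 5 to 9 alternatives, again beside the ones noted with their gene, included Nr4a2, Klf6, Klf10, Sik1 and Socs3 in ZF against ZL and Nr4a2, Dusp4, Ctgf, Elk4, Errfi1 and Nab2 in ZF-SGLT2i against ZL.

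None of the nearest relatives of the AP-1 genes that were tested was called. Of all tested genes, 18.8% were called in ZF against ZL, 3.15% in ZF-SGLT2i against ZF and 27.4% in ZF-SGLT2i against ZL. With 4 genes, 0 calls cannot be told apart from these shares. Of 7 listed, Fosl2, Jund, Jdp2 and Maff were tested, and limma called 0 of 4 in all 3 comparisons, with 0 at an unadjusted p under 0.05 and 0 called by edgeR or DESeq2. Jund, the relative with the most reads, was 154 ± 18.8 CPM in ZL, 157 ± 10.8 CPM in ZF and 142 ± 4.77 CPM in ZF-SGLT2i (mean ± SD, n = 4).

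Other early transcription factors were mostly higher in the obese groups than in ZL. Of 14 tested, 13 were higher in ZF than in ZL and 6 were called, Egr2, Nr4a2, Klf2, Klf6, Klf10 and Nfkbiz. The call of Nr4a2 was lost in 8 of 22 alternatives in ZF (adjusted p up to 0.247) and in 9 in ZF-SGLT2i (up to 0.205), and those of Klf6 and Klf10 in ZF in 6 of 23 each (up to 0.111 and 0.0784). In ZF-SGLT2i against ZL, all 14 were higher and 7 were called, Nr4a2, Klf2, Klf10, Cebpb, Cebpd, Nfkbiz and Hes1. Of all tested genes, 8.19% were called higher in ZF and 12.4% in ZF-SGLT2i against ZL. Nfkbiz, a nuclear IκB protein, rose by 0.68 ± 0.13 and 0.69 ± 0.13 in these comparisons and held in all alternatives. Klf10, induced by TGF-β, was 30.3 ± 7.80 CPM in ZL, 43.3 ± 1.41 CPM in ZF and 54.0 ± 9.38 CPM in ZF-SGLT2i. Its calls were 0.53 ± 0.15 (adjusted p = 0.0290) and 0.83 ± 0.15 (adjusted p = 0.00172) against ZL.

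Cebpb, a leucine zipper factor of the acute phase response, was the other early factor called between the obese groups. It was 16.3, 24.2, 16.2 and 20.5 CPM in ZL, 21.5, 20.2, 16.7 and 21.4 CPM in ZF, and 39.2, 38.5, 22.8 and 38.9 CPM in ZF-SGLT2i. Treated rats 2, 3 and 6 stood well apart, and rat 4 was just above the highest ZF rat. It rose by 0.75 ± 0.17 against ZF (adjusted p = 0.0282), a call lost in 8 of the alternatives (adjusted p up to 0.110), and by 0.81 ± 0.17 against ZL (adjusted p = 0.00367).

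Early effectors moved in both directions. Of 23 tested, 4 were called higher and 3 lower in ZF against ZL, and 8 higher and 4 lower in ZF-SGLT2i against ZL. Of all tested genes, 18.8% and 27.4% were called there, with 8.19% and 12.4% called higher. Between the obese groups limma called 0 of 23, against 3.15% of all tested genes. There, 5 had an unadjusted p under 0.05, and edgeR and DESeq2 called 0. Ier3, a regulator of cell survival, was 53.5 ± 7.78 CPM in ZL, 98.2 ± 21.6 CPM in ZF and 110 ± 7.58 CPM in ZF-SGLT2i, and rose by 0.85 ± 0.13 and 1.04 ± 0.13 against ZL. Sik1, a kinase induced by cAMP, rose by 0.58 ± 0.16 and 0.98 ± 0.16. Socs3 was called higher in ZF, Ier5l in both obese groups, and Per1, Plk2, Gadd45b, Btg2 and Ctgf in ZF-SGLT2i. Errfi1, a feedback inhibitor of the EGF receptor, fell, with log2 fold changes of -0.42 ± 0.13 in ZF and -0.46 ± 0.13 in ZF-SGLT2i. Pim1 and Cited2 also fell in both, and Ier5 in ZF-SGLT2i. The call of Cited2 in ZF-SGLT2i was lost in 12 of 23 alternatives (adjusted p up to 0.375).

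Feedback inhibitors other than Dusp1 and Zfp36 moved in both directions. Of 17 tested, 5 were called higher in each obese group against ZL, with 1 lower in ZF and 2 lower in ZF-SGLT2i. Of all tested genes, 18.8% were called in ZF and 27.4% in ZF-SGLT2i against ZL, with 8.19% and 12.4% called higher. Spry2 and Spry4, inhibitors of receptor tyrosine kinase signals, rose in both, Spry4 by 0.35 ± 0.08 and 0.45 ± 0.08, as did Dusp4 and Spred1. Dusp14 was called in ZF, and Nab2, which binds EGR proteins, in ZF-SGLT2i. Dusp6, a cytoplasmic phosphatase of ERK, was 108 ± 15.9 CPM in ZL, 62.1 ± 10.2 CPM in ZF and 75.6 ± 12.8 CPM in ZF-SGLT2i, and fell, with log2 fold changes of -0.79 ± 0.14 and -0.51 ± 0.14. Dusp2 was 3.45 ± 0.430 CPM in ZF and 1.66 ± 0.0902 CPM in ZF-SGLT2i, and fell, with a log2 fold change of -0.74 ± 0.14 between the obese groups (adjusted p = 0.00934), a call lost only with the rat number as a block.

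Upstream of the early genes, the ligand Egf was lower in both obese groups. Egf, made by the thick limb and distal tubule, was 2058 ± 217 CPM in ZL, 1250 ± 113 CPM in ZF and 1109 ± 169 CPM in ZF-SGLT2i, and fell, with log2 fold changes of -0.72 ± 0.12 and -0.90 ± 0.12. Tgfa (-0.88 ± 0.23) and the receptor Egfr (-0.31 ± 0.11) fell in ZF-SGLT2i against ZL. The call of Tgfa held in all alternatives, and that of Egfr was lost in 13 of 23 (adjusted p up to 0.169). Of 16 kinases tested, 2 were called in ZF and 4 in ZF-SGLT2i against ZL, shares below the 18.8% and 27.4% of all tested genes. Among them were Map2k3, higher by 0.33 ± 0.09 and 0.48 ± 0.09, and Mapk14, its p38 target, with values of -0.17 ± 0.05 and -0.23 ± 0.05. Rps6ka1 was called higher and Rps6ka3 lower in ZF-SGLT2i. Of the factors that bind the promoters, Elk3 rose in ZF against ZL (0.34 ± 0.07) and fell in ZF-SGLT2i against ZF (-0.27 ± 0.07, a call lost in 10 alternatives), and Elk4 rose in ZF-SGLT2i against ZL (0.19 ± 0.06).

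Downstream, the listed targets of AP-1 and EGR1 had differences of opposite sign in the comparisons that share the ZF rats. All 7 tested had positive differences in ZF against ZL, with a median of 0.60, and the calls included Timp1 (0.78 ± 0.17) and Cd44 (1.16 ± 0.11). All 7 had negative differences in ZF-SGLT2i against ZF, with a median of -0.51, and the median of the 10 genes was 0.15. Marker lists of other cells had either sign in this comparison. Differences were negative for 7 of 7 injured tubule markers (median -0.42, 1 called), 5 of 5 fibroblast markers (median -0.79, 3 called) and 6 of 6 macrophage markers (median -0.18, 0 called), and positive for 5 of 5 collecting duct markers (median 0.30, 1 called), 2 of 2 inner medulla markers (median 0.36, 0 called) and 2 of 2 red cell markers (median 0.38, 0 called), while podocyte and endothelial markers went both ways. Their part in the values of the targets was not tested. None of the 7 was called there by limma, 4 had an unadjusted p under 0.05, and edgeR and DESeq2 called 0. Cd44, a hyaluronan receptor, was 16.6 ± 2.07 CPM in ZL, 38.7 ± 6.59 CPM in ZF and 37.4 ± 1.93 CPM in ZF-SGLT2i. Hmox1 fell, with a log2 fold change of -0.49 ± 0.17 in ZF-SGLT2i against ZL, a call lost in 15 of 22 alternatives, edgeR and DESeq2 among them (adjusted p up to 0.121).

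Of the transcripts that ZFP36 is known to destabilize, 3 of 8 were tested. Ptgs2, which encodes cyclooxygenase 2, was 2.78, 3.64, 4.76 and 4.11 CPM in ZL, 19.8, 22.1, 19.7 and 45.6 CPM in ZF, and 21.5, 21.5, 31.8 and 33.0 CPM in ZF-SGLT2i. Every obese rat was well above every lean rat. Ptgs2 rose by 2.45 ± 0.24 (adjusted p = 3.11e-05) and 2.52 ± 0.24 (adjusted p = 1.61e-05) against ZL, beyond any of the 10 genes. Vegfa, the gene of this list with the most reads, was 341 ± 47.8, 348 ± 68.2 and 408 ± 44.8 CPM in the 3 groups and was not called. On the ATF4 branch of the stress response, Asns rose in both obese groups and Atf4 fell in ZF-SGLT2i against ZL (-0.28 ± 0.07).

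**Figure D4:**
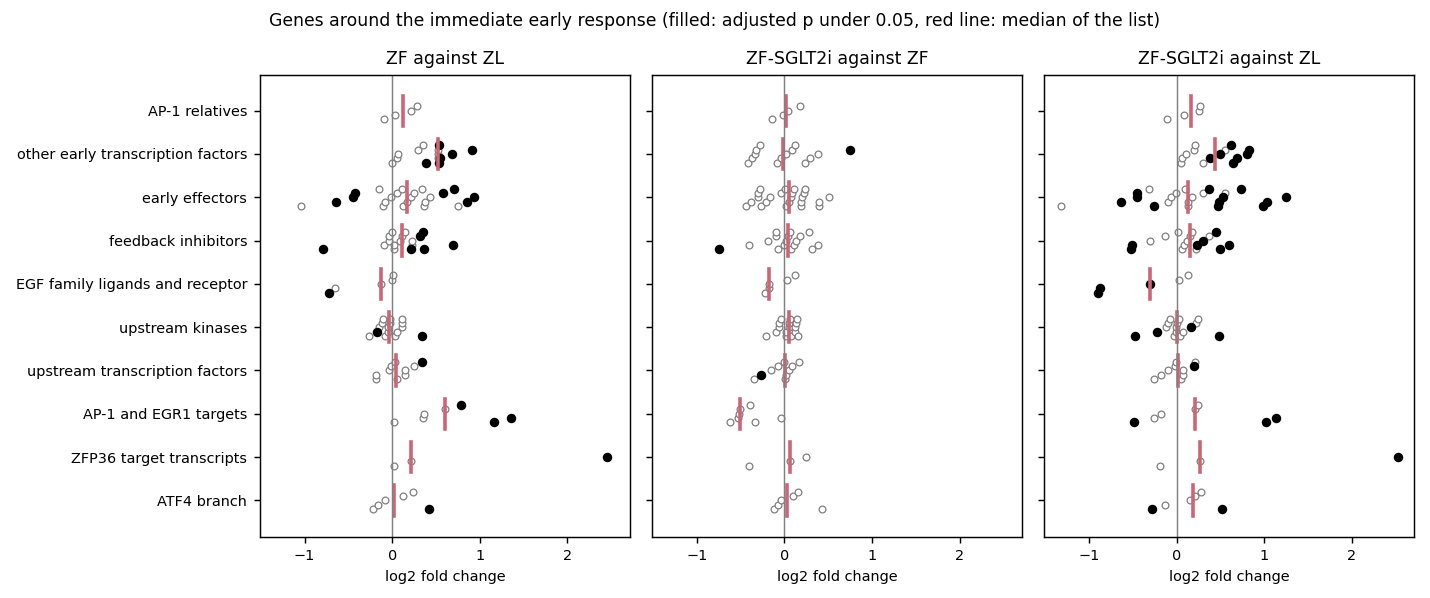
Log2 fold change (x axis) of each tested gene of 10 lists around the immediate early response in the 3 comparisons, filled where the adjusted p was under 0.05, with the median of each list as a red line. The targets of AP-1 and EGR1 lie at or to the right of 0 in ZF against ZL and to the left of 0 in ZF-SGLT2i against ZF.

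Clock genes differed sharply between lean and obese rats. Of 10 tested, 6 were called higher and 3 lower in both obese groups against ZL. Between the obese groups limma, edgeR and DESeq2 called 0, with 1 at an unadjusted p under 0.05. Of all tested genes, limma called 18.8% in ZF and 27.4% in ZF-SGLT2i against ZL, and 3.15% between the obese groups. Arntl, the activator of the clock, was 51.4, 47.9, 42.8 and 30.4 CPM in ZL, 3.64, 2.31, 7.01 and 1.42 CPM in ZF, and 2.86, 1.82, 2.72 and 2.34 CPM in ZF-SGLT2i. Dbp, an output gene, was 25.3, 37.5, 34.0 and 65.9 CPM in ZL, 250.4, 297, 182 and 286 CPM in ZF, and 296, 257, 334 and 299 CPM in ZF-SGLT2i. No obese rat reached the range of the lean rats for either gene. The other calls were Npas2 and Clock lower, and Nr1d1, Nr1d2, Per2, Per3 and Tef higher. The time of day at which each group was sampled is not given in the sources used here, and the part of the clock in the results was not tested.

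Per1 belongs to both the clock and the early response. It was 29.6, 132, 142 and 58.6 CPM in ZL, 106, 105, 130 and 188 CPM in ZF, and 204, 157, 153 and 224 CPM in ZF-SGLT2i. Its lowest rat, ZL rat 1, was the highest of its group for 6 of the 10 genes, and ZF-SGLT2i rat 6, the lowest for all 10, was the highest for Per1, as was ZF rat 5, the highest of its group for 6 of the 10. Per1 rose in ZF-SGLT2i against ZL (1.25 ± 0.39, adjusted p = 0.0273), a call lost in 8 alternatives.

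**Figure D5:**
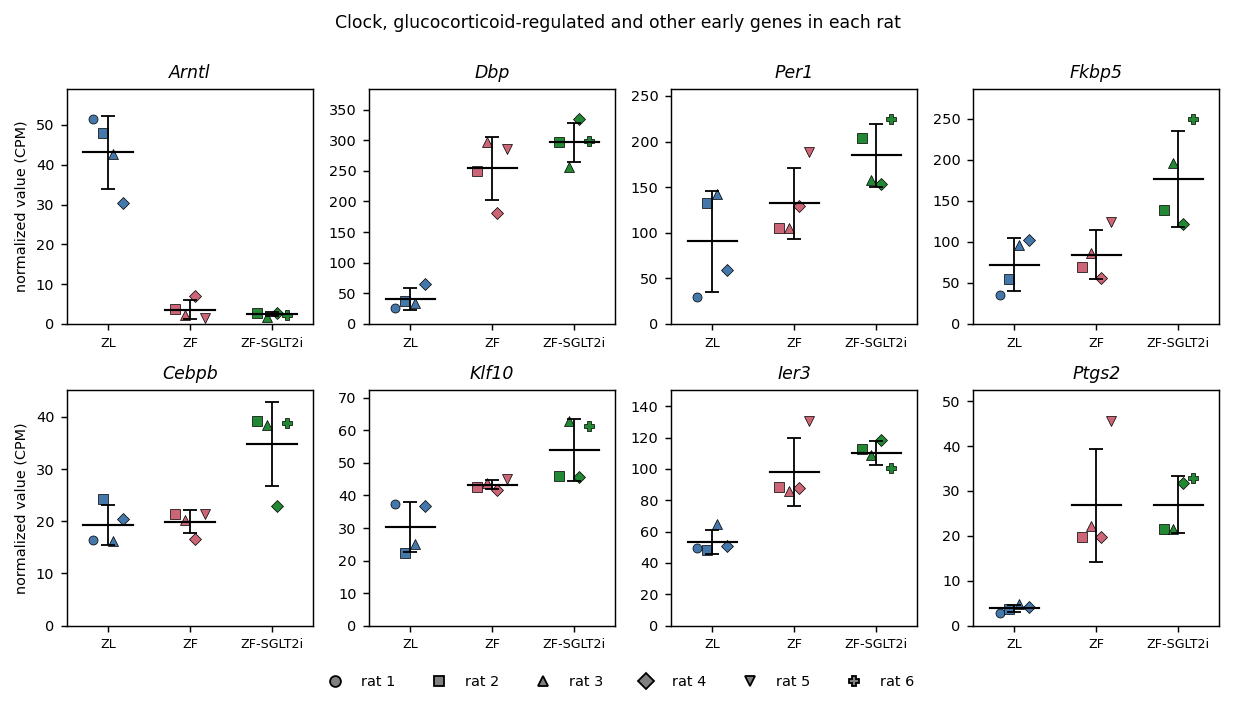
Normalized value in CPM (linear axis from 0) in each rat of 8 genes beside the 10, with the group mean as a line, error bars of 1 SD (n = 4 rats) and a symbol for each rat number. Arntl and Dbp separate lean from obese rats, and Cebpb is highest in 3 of the 4 ZF-SGLT2i rats.

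Glucocorticoids induce several early genes, and targets of theirs were called in the treated rats against ZL. Of 5 tested, led in reads by Sgk1 (602 ± 370, 368 ± 142 and 487 ± 87.5 CPM in the 3 groups), Per2 was called in ZF against ZL, and Fkbp5 (1.34 ± 0.33, adjusted p = 0.00840), Tsc22d3 (0.64 ± 0.21) and Per2 (1.50 ± 0.21) in ZF-SGLT2i against ZL. Per2 is also one of the clock genes counted above. Between the obese groups all 5 had positive differences with a median of 0.68, limma and edgeR called 0, DESeq2 called 1, and 3 had an unadjusted p under 0.05. Fkbp5 was 35.5, 54.7, 96.5 and 102 CPM in ZL, 69.1, 86.5, 56.4 and 125 CPM in ZF, and 138, 196, 121 and 249 CPM in ZF-SGLT2i. It was lowest of its group in ZL rat 1 and highest in ZF-SGLT2i rat 6 and in ZF rat 5, of which ZL rat 1 and ZF rat 5 were each the highest of their group for 6 of the 10 genes and ZF-SGLT2i rat 6 the lowest for all. Of 7 heat shock genes, Hspa1a (0.79 ± 0.20) and Hspa1b (0.79 ± 0.16) rose, and Hsph1 (-0.67 ± 0.07) and Hspd1 (-0.62 ± 0.10) fell in ZF-SGLT2i against ZL, the last pair also in ZF, and Hspa8 had the most reads. Between the obese groups limma and edgeR called 0 of the 7, DESeq2 called 1, and 2 had an unadjusted p under 0.05. The part of these genes in the results was not tested.

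The tissue had the markers of renal cortex in every group. The 6 proximal tubule markers summed to 18503 ± 1225 CPM in ZL, 14862 ± 1712 CPM in ZF and 12782 ± 1437 CPM in ZF-SGLT2i, with Lrp2 as the gene with the most reads, and the inner medulla markers to 76.7 ± 21.3, 81.7 ± 13.2 and 121 ± 19.0 CPM. Lrp2 and Slc34a1 fell in ZF-SGLT2i against ZL, and Slc22a6 rose in ZF against ZL (0.33 ± 0.10) and fell in ZF-SGLT2i against ZF (-0.59 ± 0.10). No list had a gene in the table at 0 in all rats.

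Markers of other cell types moved beside the early genes. Of 7 injured tubule markers, 6 were called higher in ZF against ZL, where 8.19% of all tested genes were called higher. The 7 markers had sums of 415 ± 30.2, 1253 ± 631 and 935 ± 333 CPM in ZL, ZF and ZF-SGLT2i, with Spp1 as the leading gene. Of these, Havcr1, the kidney injury molecule, rose by 3.01 ± 0.57 and 2.12 ± 0.57 against ZL, and Lcn2, Spp1, Krt8, Krt18 and Clu were the other calls in ZF. Vcam1 fell in ZF-SGLT2i against ZL (-0.50 ± 0.16). Collecting duct markers summed to 1368 ± 261, 1449 ± 240 and 1990 ± 118 CPM, and Aqp2, their leading gene, was called in ZF-SGLT2i against ZF (0.62 ± 0.16), and Aqp3 and Avpr2 as well against ZL. Thick limb and distal tubule markers, led by Umod, summed to 5577 ± 707, 5991 ± 672 and 5498 ± 340 CPM, with Umod lower (-0.60 ± 0.19) and Slc12a3 higher (0.79 ± 0.17) in ZF-SGLT2i against ZL. The inner medulla list was led by Aqp4, and both tested markers were called higher in ZF-SGLT2i against ZL, Aqp4 (0.76 ± 0.23) and Akr1b1 (0.34 ± 0.09), the latter also in ZF (0.31 ± 0.09). Fibroblast markers summed to 493 ± 77.0, 605 ± 143 and 349 ± 28.3 CPM with Pdgfra in the lead, and Col1a2, Col3a1 and Dcn fell in ZF-SGLT2i against ZF, while Col1a1 rose in ZF against ZL and Pdgfra and Dcn fell in ZF-SGLT2i against ZL.

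Markers of immune cells were not called. Macrophage markers, led by Csf1r, summed to 78.5 ± 12.8, 101 ± 16.0 and 89.9 ± 33.0 CPM, lymphocyte markers, led by Cd4, to 19.4 ± 3.54, 25.9 ± 4.18 and 20.6 ± 7.90 CPM, and neutrophil markers, led by Csf3r, to 1.38 ± 0.22, 2.25 ± 0.76 and 1.92 ± 1.49 CPM. Cd4 alone had means of 17.2, 23.1 and 19.3 CPM, and Cd3e and Cd3g were below 1 CPM in every rat. The lymphocyte sum is therefore mostly Cd4. In these 3 lists limma called 0 genes in any comparison, out of 6, 2 and 1 tested. Of all tested genes it called 18.8% in ZF against ZL, 3.15% in ZF-SGLT2i against ZF and 27.4% in ZF-SGLT2i against ZL. At an unadjusted p under 0.05 there were 1, 1 and 0 macrophage genes and 0, 1 and 1 lymphocyte genes in the 3 comparisons, and edgeR and DESeq2 each called 1 lymphocyte gene in ZF-SGLT2i against ZL. Podocyte markers, led by Podxl, summed to 1373 ± 182, 1782 ± 181 and 1821 ± 205 CPM, with 3 of 6 called higher in ZF and 3 of 6 in ZF-SGLT2i against ZL, among them Podxl (0.40 ± 0.12 and 0.52 ± 0.12) and, in ZF-SGLT2i, Synpo (0.41 ± 0.09). Endothelial markers, led by Kdr, summed to 561 ± 81.3, 665 ± 34.8 and 677 ± 102 CPM, with Ehd3 called in the same comparison. Of the smooth muscle markers, Tagln fell in ZF-SGLT2i against ZF (-0.77 ± 0.19). Hemoglobin and other red cell markers, led by Hba1, summed to 2.17 ± 1.10, 8.11 ± 4.74 and 13.6 ± 9.37 CPM, and adipocyte markers, led by Adipoq, to 14.4 ± 2.55, 11.6 ± 1.54 and 15.2 ± 1.82 CPM. Adipoq alone had means of 13.9, 11.0 and 14.3 CPM, and Plin1, Fabp4 and Cfd were below 1 CPM in every rat. The adipocyte sum is therefore mostly Adipoq. The part of each cell type in the levels of the 10 genes was not tested.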

How the data were processed

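The authors deposited a table of signal values for 13151 genes in 12 rats, 4 per group, from rRNA-depleted, strand-kept cortical libraries read from both ends. Each value is CPM with edgeR's TMM factors (largest gap 7.28e-12), and dividing by the lowest nonzero value of a rat gave whole numbers (tolerance 1e-06), so whole reads were recovered. The submitters' processing notes name Trimmomatic 0.38, RSEM 1.3.0, Bowtie2, edgeR and rn6. RSEM estimates counts, so reads shared by similar genes may be split. Depth was 8824980 to 12210257 reads on genes per rat, which leaves genes near 1 CPM with few reads. Promoters came from RefSeq on GRCr8.

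Limma 3.58.1 in R 4.3.3 was fitted to log2(value + 1) of 11633 genes that reached 1 CPM in 4 rats or more, all 3 groups in one fit with a trend. P-values were two-sided and adjusted by the Benjamini-Hochberg method over all tested genes. Exact permutation tests covered the 70 assignments of 4 rats against 4 (smallest p 0.0286). P-values measure the spread between these rats. No rats of a group were copies (chi-square per gene 5.56 to 51.6). Alternatives were a pseudocount of 0.1, no filter, a mean of at least 10, median ratios, quantile normalization, 2-group fits, a replicate block, array weights, edgeR 4.0.16, DESeq2 1.42.0, and leaving out each rat.

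The 10 genes, the lists and their tests were chosen with earlier results of these data known. Named genes are the 10, pathway genes called in a comparison (or the one with the most reads), the leading gene and separated calls of the other lists, and the 10 genes closest within groups. Tsc22d3, whose groups overlapped, was named after its values were seen. Tools were tested on simulated data. No transcript lengths were used, so levels are not compared between genes. Some genes of the lists that the rule would name are not reported here.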

Additional observations from a re-analysis of the deposited data

Results flagged for a closer look

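In 10 of 168 groups of 4 rats, over the 10 immediate early genes and the pathway genes that were called, a single rat lay apart from the other 3 by Dixon's criterion. Chance flags about 1 in 20 groups, or 8.4 of 168. Of the 10 immediate early genes only Jun had such a rat, ZF rat 3 at 155 CPM, with the others at 184 to 187 CPM. The low rat among the treated rats was rat 4 for Cebpb (22.8 CPM, others 38.5 to 39.2) and for Pim1 (4.63 CPM, others 6.56 to 6.80), and Spred1 was high in rat 6 (37.3 CPM, others 33.0 to 33.3). In ZF rat 5, Ptgs2 was 45.6 CPM (others 19.7 to 22.1) and Ier3 was 131 CPM (others 86.2 to 88.3). In ZL rat 3, Ier3 was 65.1 CPM (others 48.3 to 51.0) and Ier5 was 20.0 CPM (others 27.8 to 28.2). In ZL rat 4, Egf was 1735 CPM (others 2139 to 2188) and Plk2 was 6.97 CPM (others 5.03 to 5.29).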

How the results depend on the processing

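Over the 30 differences of the 10 genes and 23 alternatives, 615 of 684 values kept their direction and their side of the threshold, 27 lost the call, 21 gained it and 21 changed sign. The sign changes were in 4 differences that were not called. Jun in ZF against ZL was 0.012 with quantile normalization and -0.19 to 0.037 when a rat was left out. Fosb in ZF-SGLT2i against ZF was 0.032 with quantile normalization, 0.34 with the replicate block, 0.16 with array weights, 0.12 with edgeR, 0.11 with DESeq2, 0.22 without the 2 rats farthest from their groups and -0.20 to 0.22 when a rat was left out. Nr4a1 in that comparison was -0.028 to 0.18 when a rat was left out. Atf3 in ZF-SGLT2i against ZL was 0.17 with the replicate block, 0.028 with array weights, 0.17 without the 2 rats and -0.24 to 0.15 when a rat was left out.

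The number of the 10 genes called in ZF against ZL was 3 and ran from 1 (without ZL rat 2, ZL rat 3 or ZF rat 3) to 5 (without ZL rat 1) when a rat was left out, and was 6 without the 2 rats. In ZF-SGLT2i against ZF it was 1, and 2 with the replicate block, with DESeq2 and without the 2 rats. After group means were subtracted, same-numbered rats of different groups correlated from -0.38 to 0.25. Rats with different numbers were not set beside them, so whether equal numbers share anything is not known. The block also left ZL rat 1, ZF rat 5 and ZF-SGLT2i rat 6 without weight in the comparisons, because their numbers occur in 1 group only, so its differences rest on rats 2, 3 and 4 and the effect of the block alone was not separated from that of fewer rats. The replicate block called 807, 223 and 1502 of all genes and 14, 1 and 22 pathway genes in the order ZF against ZL, treated against untreated ZF, and treated ZF against ZL, where the fit without it called 2185, 366 and 3184, and 28, 3 and 40. With the block Nr4a1 in ZF against ZL had an adjusted p of 0.0508. Without the 2 rats the counts were 1313, 131 and 1560 of all genes and 18, 1 and 23 pathway genes. In ZF-SGLT2i against ZF, array weights called 689 genes and 6 pathway genes, and DESeq2 641 and 5. When a rat was left out, all genes called ran from 1384 to 2453 in ZF against ZL and from 176 to 569 in ZF-SGLT2i against ZF, and pathway genes from 17 to 28 and from 1 to 4. Fewer rats enter the fits without rats and the block, and for the other alternatives the cause was not tested. Depth limits Fosb and Atf3, which were left out by the filter at a mean of 10.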
